A study of Homo sapiens with 6 samples.

Results

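The genes described here are 9 components of TGF-beta and activin signalling, taken by gene symbol from the 31582 genes of a count table: the ligand genes TGFB1, TGFB2 and INHBA, the receptor genes TGFBR1 and TGFBR2, the signal transducers SMAD2, SMAD3 and SMAD4, and TGFBI, a matrix gene named for its induction by TGF-beta. Each symbol matched 1 gene, and all 9 passed the filter on low counts. They were compared between 3 CALR knockdown and 3 control libraries of MDA-MB-231, an established triple-negative breast cancer line. The knockdown cells carry an shRNA against CALR, which encodes the endoplasmic reticulum chaperone calreticulin, and the control cells are named NTC in the growth protocol. The cells of both groups were grown in medium with serum, and collected before confluence, and strand-specific libraries were made from polyadenylated RNA. Whether replicates stand for separate cultures, infections or shRNAs is not labelled. Tests thus weigh differences only against the spread between these 6 libraries, which may be technical.

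TGF-beta is secreted in a latent form, held by its own propeptide and by matrix-bound binding proteins, and has to be released before it can signal. The active dimer binds the type II receptor TGFBR2, which recruits and phosphorylates the type I receptor TGFBR1. TGFBR1 then phosphorylates SMAD2 and SMAD3, which join SMAD4 and enter the nucleus. Activin A, a dimer of the INHBA product, uses other receptors and the same SMADs. In late-stage breast cancer cells, MDA-MB-231 among them, the pathway is known for promoting invasion and metastasis more than growth arrest.

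In GENCODE 29 (build GRCh38), TGFB1 lies on the minus strand of chromosome 19 at 41301587 to 41353911 and TGFB2 on the plus strand of chromosome 1 at 218346235 to 218444619. Because TGFB1 lay above the controls and TGFB2 mostly below them, the bases before their RefSeq starts (build GRCh38.p14) are shown, 5′ to 3′ on the gene's strand. Capitals mark GC boxes (GGGCGG) and SMAD boxes (CAGAC), each searched on both strands, and the marked motifs did not overlap. The TGFB1 stretch is chr19:41353923-41354168, the 246 bases of the 250-base window that lie outside annotated UTRs. The TGFB2 stretch is chr1:218345086-218345335, whose RefSeq start lies upstream of the GENCODE start given above. Of its 250 bases, 161 lie in an exon of TGFB2-AS1, an antisense gene on the minus strand.
TGFB1: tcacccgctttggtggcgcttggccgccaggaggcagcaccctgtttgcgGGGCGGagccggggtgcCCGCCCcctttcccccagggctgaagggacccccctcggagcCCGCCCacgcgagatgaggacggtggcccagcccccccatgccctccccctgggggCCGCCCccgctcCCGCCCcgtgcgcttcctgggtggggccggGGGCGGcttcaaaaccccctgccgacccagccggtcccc
TGFB2: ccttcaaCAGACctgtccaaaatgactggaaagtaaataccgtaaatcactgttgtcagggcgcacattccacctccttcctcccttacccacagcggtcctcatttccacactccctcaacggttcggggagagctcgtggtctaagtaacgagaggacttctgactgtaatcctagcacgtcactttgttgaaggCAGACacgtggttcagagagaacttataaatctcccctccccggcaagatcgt
The TGFB1 stretch held 6 GC boxes and 0 SMAD boxes, and that of TGFB2 0 GC boxes and 2 SMAD boxes. Of 34943 windows of 250 bases before RefSeq starts, 42.5% held a GC box and 38.0% a SMAD box. An AP-1 site (TGANTCA, in 6.59% of the windows) and the ER stress element (in 0.0744%) were found in neither. The GC content was 76.8% in the TGFB1 window and 50.4% in that of TGFB2. SMAD4, INHBA and TGFBI also have 1 RefSeq start each, and their windows held 0 SMAD boxes. The SMAD4 window held 2 GC boxes and that of INHBA 0, and both genes were lower on average in knockdown. The window of TGFBI, higher on average in knockdown, held 3 GC boxes. Any link of these motifs to the levels was not tested.

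CALR itself was at 47.5%, 6.39% and 10.6% of the control mean in knockdown replicates 1 to 3, so the knockdown was weakest in replicate 1. Its log2 fold change was −2.22 ± 0.64 (SE), with adjusted p-values of 0.209 from edgeR and 0.159 from DESeq2, and was −3.55 without knockdown replicate 1 and −1.78 without replicate 2. Library totals lay between 37295097 and 42425310 counts in knockdown and between 34639090 and 40732131 in control libraries. In edgeR's quasi-likelihood test 0 of 16394 genes passed an adjusted p of 0.05 (0% of those tested), while DESeq2 gave 530 (3.23%) and edgeR with a GC correction 7 (0.0427%). At an unadjusted p under 0.05, edgeR gave 2546 genes, 15.5% of those tested, with 8.17% higher and 7.36% lower in knockdown. All 5 markers chosen for the line (VIM, CD44, EGFR, KRT8 and KRT18) were detected, summing to 3402 to 4209 CPM (counts scaled by TMM-adjusted library size) in knockdown and 2594 to 2945 CPM in control libraries. The sum is mostly VIM, at 2809 CPM on average in knockdown and 1792 CPM in control libraries, while EGFR averaged 112 CPM in knockdown and 201 CPM in control libraries without overlap (log2 fold change −0.84 ± 0.16, SE; adjusted p = 0.149 from edgeR). The 5 luminal and hormone receptor markers summed to 41.8 to 56.9 CPM in knockdown and 44.6 to 47.7 CPM in control libraries. That sum is mostly ERBB2, at 39.4 CPM on average in knockdown and 37.2 CPM in control libraries. GATA3 averaged 9.94 CPM in knockdown and 7.11 CPM in control libraries without overlap (adjusted p = 0.319 from edgeR). ESR1 was below 0.6 CPM in all 6. Blood cell markers summed to 3.48 to 5.39 CPM in knockdown and 4.34 to 4.89 CPM in control libraries. Most of it is CD68, at 4.03 CPM on average in knockdown and 4.27 CPM in control libraries, while CD3E had 0 counts in 5 of the 6. AC016876.2, on the same strand, shares 81.7% of the CD68 exon bases, so the CD68 count may hold reads of it. Fibroblast and endothelial markers summed to 10.5 to 16.3 CPM in knockdown and 7.56 to 15.8 CPM in control libraries, mostly LUM, and the endothelial genes CDH5 and VWF had at most 5 counts. Their part in the results was not tested.

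TGFB1 had the smallest p of the 9 genes in edgeR's test of the uncorrected counts, but TGFBR1 had it after a GC correction and TGFBI with the replicate number as a block. TGFB1 and SMAD4 had an unadjusted p under 0.05 in edgeR's test, TGFB1 on the higher and SMAD4 on the lower side, and 0 of the 9 passed the adjusted threshold. That is 2 of 9 beside the 15.5% of all genes. In CPM, the groups did not overlap for TGFB1 and TGFBR1, both higher in knockdown, where 22.5% of all genes had groups apart (11.3% higher, 11.2% lower). The median log2 fold change of the 9 was 0.09, beside −0.001 over all genes tested. In bulk RNA, fewer cells that express a gene and less RNA per cell cannot be told apart.

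**Figure D1:**
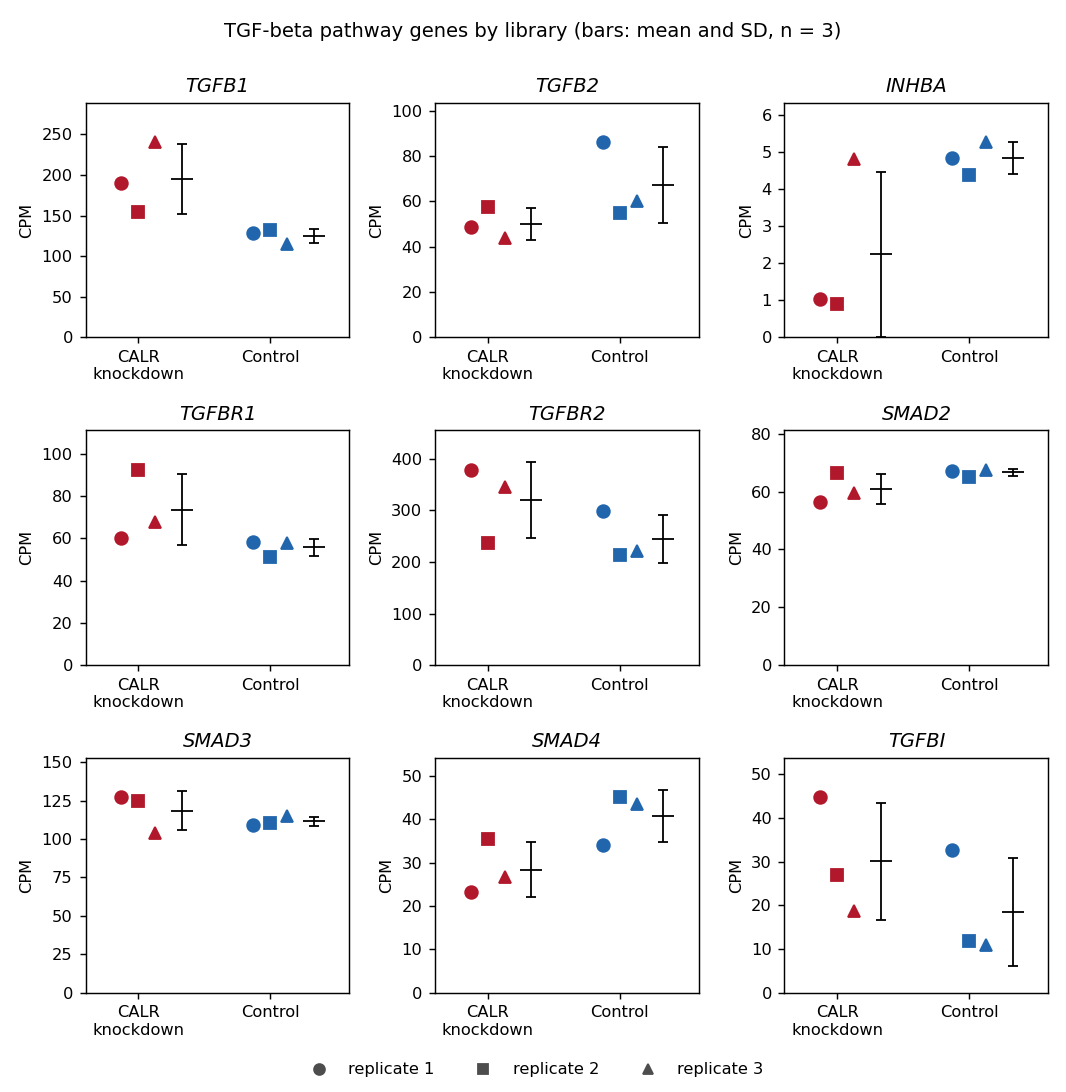
Normalised counts (CPM, linear axes from 0) of the 9 genes in each CALR knockdown and control library, with marker shapes for the replicate number and black bars for the mean and SD of 3 libraries. The 3 TGFB1 values of knockdown, 155 to 241 CPM, lie above the control values of 115 to 132 CPM, and INHBA has 2 knockdown values near 1 CPM and 1 at 4.80 CPM.

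TGFB1, the ligand most widely expressed in tumours, had 191, 155 and 241 CPM in knockdown replicates 1 to 3, against 129, 132 and 115 CPM in control replicates 1 to 3. All 3 knockdown libraries were above all 3 controls, and knockdown replicate 2 was closest to them. The fitted level was 1.56-fold that of the controls, a log2 fold change of 0.64 ± 0.19 (SE, n = 3 each). The edgeR p was 0.00829 before and 0.211 after adjustment. With knockdown replicate 2 left out, TGFB1 passed at a log2 fold change of 0.79 and an edgeR adjusted p of 0.0194, in a fit where 15.5% of all genes passed, and over the other 5 libraries left out in turn the adjusted p was 0.194 to 0.688. On the other strand, 6.6% of the TGFB1 exon bases are shared with HNRNPUL1, and how strand was used in counting is not given in the sources used here.

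TGFB2, the second ligand, had 48.8, 57.4 and 43.7 CPM in knockdown and 86.2, 55.0 and 60.3 CPM in control libraries. The groups overlapped, since knockdown replicate 2 was above control replicate 2, and control replicate 1 was the highest of the 6. The log2 fold change was −0.43 ± 0.21 (SE), with an adjusted p of 0.365 from edgeR, and −0.20 without control replicate 1. TGFB2-OT1, a transcript on the same strand, covers 26.6% of the TGFB2 exon bases, so the TGFB2 count may hold reads of it.

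INHBA, on chromosome 7 at 41667168 to 41705834, was the lowest of the 9. It had 36, 36 and 179 counts in knockdown and 183, 160 and 230 counts in control libraries, which is 1.03, 0.894 and 4.80 CPM against 4.84, 4.39 and 5.27 CPM. Knockdown replicates 1 and 2 were far below the controls, and replicate 3 lay within their range. CALR was at 47.5%, 6.39% and 10.6% of the control mean in knockdown replicates 1 to 3, and a link of INHBA to the CALR level was not tested. INHBA had the same 36 counts in replicates 1 and 2, which had the most and the least CALR of the knockdown libraries. The log2 fold change of INHBA was −1.11 ± 0.58 (SE, adjusted p = 0.388 from edgeR). Without knockdown replicate 3 it was −2.31 and passed, at an adjusted p of 0.0262 from edgeR in a fit where 0.819% of all genes passed, while without replicate 1 or 2 it was −0.76 or −0.72.

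The receptor genes were somewhat higher in knockdown, in different libraries. TGFBR1, the type I receptor kinase (chromosome 9, 99104038 to 99154192), had 60.3, 92.5 and 67.9 CPM in knockdown and 58.3, 51.0 and 57.6 CPM in control libraries. All 3 knockdown values were above the controls, but replicate 1 only by a small margin, and in the deposited FPKM values (scaled by gene length and depth) the groups overlapped, with 8.07, 13.6 and 8.60 FPKM in knockdown and 8.36, 7.59 and 8.70 FPKM in control libraries. Its log2 fold change was 0.40 ± 0.19 (SE, adjusted p = 0.357 from edgeR), and 0.21 without knockdown replicate 2. TGFBR2, the type II receptor kinase (chromosome 3, 30606502 to 30694142), had 379, 238 and 346 CPM in knockdown and 298, 214 and 221 CPM in control libraries. Here knockdown replicate 2 was the lowest of its group and lay under control replicate 1, the reverse of its place in TGFBR1. The log2 fold change was 0.39 ± 0.22 (SE, adjusted p = 0.409 from edgeR), and 0.26 without knockdown replicate 1.

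Among the transducers, SMAD4, the partner that SMAD2 and SMAD3 share (chromosome 18, 51028394 to 51085045), had 23.2, 35.4 and 26.7 CPM in knockdown and 34.02, 45.2 and 43.5 CPM in control libraries. Replicates 1 and 3 of knockdown were below all controls, while replicate 2 was just above control replicate 1. Knockdown averaged 69.6% of the control mean, with a log2 fold change of −0.52 ± 0.21 (SE). The edgeR p was 0.0371 before and 0.294 after adjustment. With knockdown replicate 2 left out, SMAD4 passed at −0.71 and an edgeR adjusted p of 0.0365, as did 15.5% of all genes in that fit. AC091551.1, on the same strand, shares 7.4% of the SMAD4 exon bases, so the SMAD4 count may hold reads of it.

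SMAD2 and SMAD3, the substrates of TGFBR1, differed little between the groups. SMAD2 (chromosome 18, 47808957 to 47931146) had 56.3, 66.5 and 59.5 CPM in knockdown and 67.1, 65.1 and 67.6 CPM in control libraries. Knockdown replicates 1 and 3 were below the controls and replicate 2 among them. Its log2 fold change was −0.13 ± 0.15 (SE), and −0.08 without knockdown replicate 1. SMAD3 (chromosome 15, 67063763 to 67195195) had 127, 124 and 104 CPM in knockdown and 109, 110.2 and 115 CPM in control libraries, so the controls lay inside the knockdown range. Its log2 fold change was 0.09 ± 0.15 (SE), and 0.04 to 0.19 with 1 library left out, but −0.038 with library size alone and −0.037 to −0.040 on FPKM values. The edgeR adjusted p-values were 0.682 for SMAD2 and 0.791 for SMAD3.

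TGFBI, which encodes a secreted matrix protein that binds collagens and integrins (chromosome 5, 136028895 to 136063818), had 44.8, 26.9 and 18.6 CPM in knockdown and 32.7, 11.8 and 10.9 CPM in control libraries. In both groups replicate 1 was the highest, and the groups overlapped. The log2 fold change was 0.71 ± 0.46 (SE, adjusted p = 0.471 from edgeR). It was 1.41 without control replicate 1 and 0.31 without knockdown replicate 1.

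The libraries also differed in how read counts followed GC content, and the 9 genes span a wide range of it. The trend of log2 CPM, relative to the control mean, was 0.22, −0.14 and 0.34 per 10 percentage points of GC in knockdown replicates 1 to 3, against 0.01, 0.05 and −0.06 in control replicates 1 to 3. The longest transcripts hold 63.5% GC for TGFB1, between 47.4% and 50.6% for TGFBR2, SMAD3 and TGFBI, and between 38.9% and 41.1% for TGFB2, TGFBR1, INHBA, SMAD2 and SMAD4. After each library's GC trend was removed, TGFB1 was at 0.58 ± 0.12 (log2 fold change ± SE) and TGFBR1 at 0.68 ± 0.13, with edgeR adjusted p-values of 0.0814 and 0.0765. TGFB2 was at −0.13 ± 0.18, SMAD4 at −0.33 ± 0.17, INHBA at −0.67 ± 0.66 and SMAD2 at 0.12 ± 0.14. With the correction TGFB1 and TGFBR1 had an unadjusted p under 0.05 in edgeR and SMAD4 did not, where 19.3% of all genes did.

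**Figure D2:**
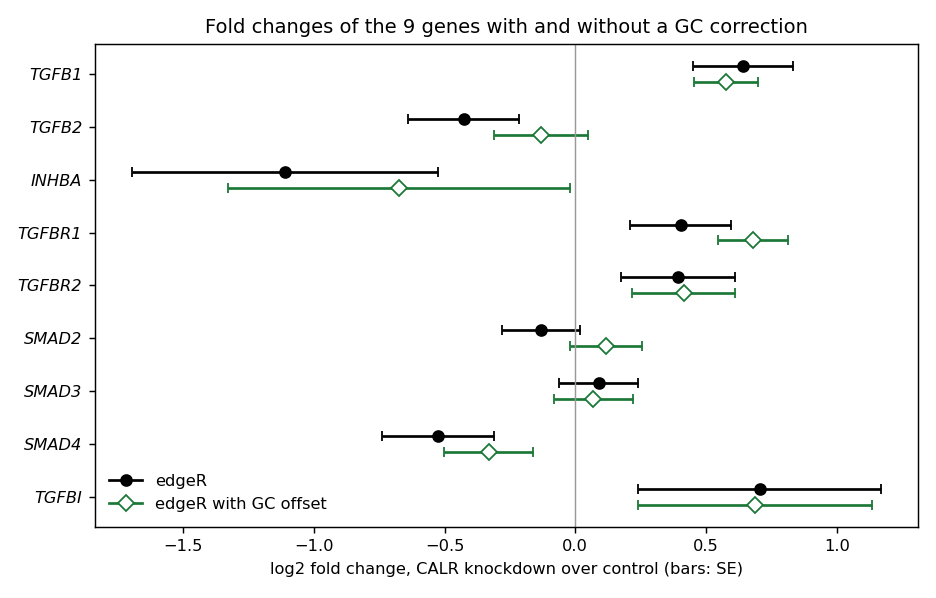
Log2 fold change of CALR knockdown over control for the 9 genes (horizontal axis), with SE bars, from edgeR on counts (filled circles) and after removal of each library's GC trend (open diamonds). TGFB1 is at 0.64 without and 0.58 with the correction, TGFBR1 is larger after it, TGFB2, INHBA and SMAD4 are nearer to 0, and SMAD2 changes sign.

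Levels of different genes were compared per length, in the deposited FPKM values. TGFB1 averaged 62.7 ± 9.38 FPKM in CALR knockdown and 44.2 ± 2.58 FPKM in control libraries (mean ± SD of 3 libraries, here and below). TGFBR2 was at a similar level, with 60.7 ± 11.2 FPKM in knockdown and 50.6 ± 8.26 FPKM in control libraries, and the ranges of TGFB1 and TGFBR2 overlapped in each group. SMAD3 followed, with 14.8 ± 2.43 FPKM in knockdown and 15.1 ± 0.802 FPKM in control libraries. TGFB2 averaged 8.94 ± 1.93 FPKM in knockdown and 12.9 ± 2.87 FPKM in control libraries. TGFBR1 averaged 10.1 ± 3.04 FPKM in knockdown and 8.22 ± 0.569 FPKM in control libraries. TGFBI averaged 9.43 ± 4.19 FPKM in knockdown and 6.21 ± 3.96 FPKM in control libraries. The mean of TGFB2 thus stood below those of TGFBR1 and TGFBI in knockdown and above both in control libraries. The ranges of these 3 genes overlapped in knockdown, and in control libraries those of TGFB2 and TGFBR1 did not. SMAD4 averaged 2.89 ± 0.843 FPKM in knockdown and 4.50 ± 0.761 FPKM in control libraries, above SMAD2 in every library. INHBA was the lowest, at 0.313 ± 0.292 FPKM in knockdown and 0.770 ± 0.0819 FPKM in control libraries. SMAD2, at 1.55 ± 0.242 FPKM in knockdown and 1.85 ± 0.0643 FPKM in control libraries, depends on the length used: its counts and FPKM values together correspond to 37.7 kb, against 7.74 kb for SMAD3, and GENCODE release 29 lists a SMAD2 transcript of 34526 bases. An FPKM computed with a shorter length would be higher in proportion.

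**Figure D3:**
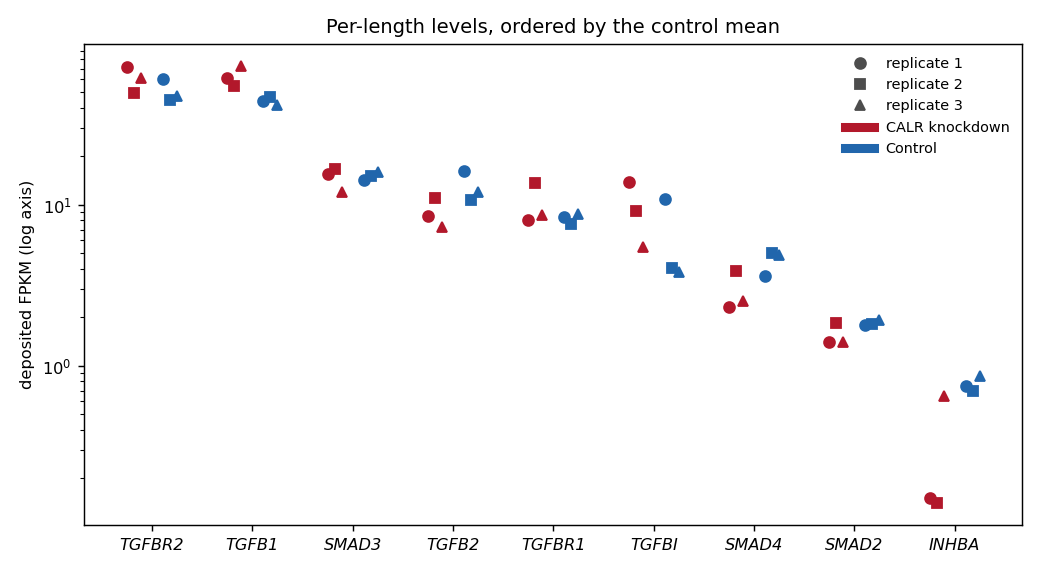
Deposited FPKM values (log axis) of the 9 genes in each library, ordered by the control mean, with knockdown left of control for each gene. TGFBR2 and TGFB1 lie between 41.6 and 72.8 FPKM in all 6 libraries, and INHBA lies below 1 FPKM in all 6.

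The balance of paired genes within a library does not depend on how libraries are scaled. TGFB1 was 7.13, 4.92 and 10.1 times as high in FPKM as TGFB2 in knockdown replicates 1 to 3, and 2.73, 4.37 and 3.49 times as high in control replicates 1 to 3. The 3 knockdown ratios were above all control ratios. On the log2 scale the ratio averaged 2.82 ± 0.52 (SD) in the 3 knockdown libraries and 1.79 ± 0.34 in the 3 control libraries, a difference of 1.03 with p = 0.1 in the exact two-sided permutation test, the smallest p that 3 against 3 libraries allow. With the GC trends removed, the log2 ratio was 2.47, 2.82 and 2.66 in knockdown and 1.59, 2.17 and 2.14 in control libraries, still without overlap, and the difference was 0.69.

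For the receptors, the log2 ratio of TGFBR1 to TGFBR2 was −3.15, −1.85 and −2.84 in knockdown and −2.85, −2.56 and −2.43 in control libraries. Knockdown replicate 2 had the highest ratio and replicate 1 the lowest, on either side of the controls. The difference between the groups was 0.001 (p = 1, exact two-sided permutation test), the SD within knockdown was 0.68, and the sign depended on the library left out. For the SMADs, the log2 ratio of SMAD2 to SMAD3 was −3.46, −3.19 and −3.09 in knockdown and −2.99, −3.04 and −3.05 in control libraries. The knockdown ratios were all lower, by 0.22 on average (p = 0.1, exact two-sided permutation test). After removal of the GC trends the groups overlapped and the difference was 0.05. Adjusted over the 3 ratios by the Benjamini-Hochberg method, the permutation p-values were 0.15 for the ligands, 1 for the receptors and 0.15 for the SMADs.

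**Figure D4:**
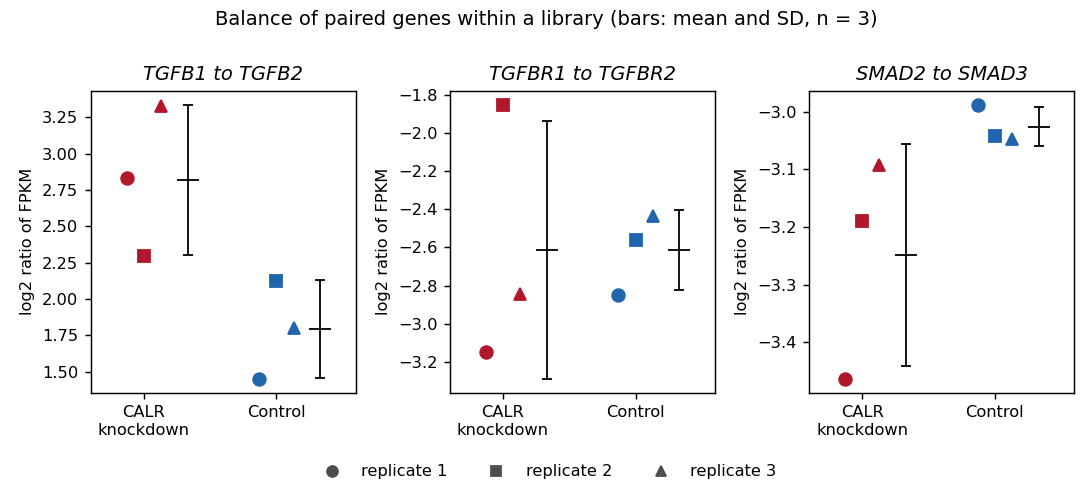
Log2 ratio of FPKM values within each library for TGFB1 to TGFB2, TGFBR1 to TGFBR2 and SMAD2 to SMAD3 (axes do not start at 0), with bars for the mean and SD of 3 libraries. The knockdown and control ratios are apart for the ligands and for the SMADs, and the receptor ratio of knockdown replicate 2, at −1.85, stands above all others.

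Of the 73 other pathway genes in 5 lists, 64 were tested. At an unadjusted p under 0.05 in edgeR, 5 were higher and 8 lower in knockdown, which is 20.3% of the 64 beside 15.5% of all genes, and 0 passed the adjusted threshold. The median log2 fold change was −0.14, beside −0.001 over all genes tested. With knockdown replicate 2 left out, the count of 13 was 22, or 34.4% of the 64 beside 35.6% of all genes. In that fit LTBP2, NRROS, SKIL, FKBP1A and ADAM19 of the genes named below passed the adjusted threshold of edgeR, as did 15.5% of all genes. In DESeq2, where 3.23% of all genes passed, LTBP2, INHBE, ENG and ADAM19 did so. Scaling by library size alone put the median of all genes at −0.133 and that of the lists lower too, with 7 rather than 8 positive members for latent TGF-beta, 2 rather than 4 for the SMAD regulators and 9 rather than 10 for the targets.

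Genes for storage and activation of latent TGF-beta had a median log2 fold change of 0.23 over 11 tested members, with 8 positive. LTBP2 is a matrix protein of the latent TGF-beta binding protein family, but membership of that family alone does not make it a store of TGF-beta. Storage was not tested. LTBP2 had 30.1, 16.8 and 21.7 CPM in knockdown and 13.3, 10.9 and 10.1 CPM in control libraries, all knockdown values above all controls. Its log2 fold change was 1.001 ± 0.25 (SE), with adjusted p-values of 0.187 from edgeR and 0.0125 from DESeq2. NRROS, a transmembrane protein that anchors latent TGF-beta1 and is known mainly from myeloid cells, had 37.5, 19.7 and 40.5 CPM in knockdown and 16.7, 20.3 and 19.3 CPM in control libraries. Knockdown replicate 2 was within the controls, and the log2 fold change was 0.80 ± 0.27 (SE), or 1.06 without that library. PIGX, on the same strand, shares 7.6% of the NRROS exon bases, so the NRROS count may hold reads of PIGX. In LTBP2 and NRROS, as in TGFB1, knockdown replicate 2 was the lowest of its group.

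The other ligands and soluble antagonists were all on the lower side: the 7 tested members (TGFB3, INHBB, INHBE, GDF11, FST, FSTL3 and DCN) had negative log2 fold changes, with a median of −0.40. With 1 library left out, TGFB3, INHBB and FSTL3 each turned positive in at least 1 case, so the count of negative members was 5 to 7. INHBE, the gene for the activin E subunit, had 6, 4 and 22 counts in knockdown and 158, 44 and 48 in control libraries. DCN, which encodes decorin, a matrix proteoglycan that can bind TGF-beta, had 16, 0 and 27 counts in knockdown and 109, 49 and 56 in control libraries. The groups did not overlap for either gene, and control replicate 1 was the highest library for both. The log2 fold change was −2.90 ± 0.75 for INHBE and −2.23 ± 0.86 for DCN (SE), with edgeR adjusted p-values of 0.192 and 0.276 and DESeq2 adjusted p-values of 0.00583 and 0.113. INHBE was at −2.003 without control replicate 1 and −3.96 without knockdown replicate 3, and DCN at −1.62 without knockdown replicate 2 and −3.02 without knockdown replicate 3. DCN also stands in the list of fibroblast markers.

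Other receptors and co-receptors had a median log2 fold change of 0.04 over 8 tested members, 4 of them positive. ENG, which encodes the co-receptor endoglin, best known from endothelium, had 29.1, 25.8 and 22.2 CPM in knockdown and 18.6, 11.996 and 10.6 CPM in control libraries. The groups were apart, with a log2 fold change of 0.90 ± 0.25 (SE) and adjusted p-values of 0.200 from edgeR and 0.0298 from DESeq2. The endothelial marker PECAM1 had 4.17, 1.71 and 1.82 CPM in knockdown and 1.56, 0.961 and 0.848 CPM in control libraries, while CDH5 had at most 2 counts. CD109, a membrane-anchored protein that binds TGF-beta and limits its signalling, had 26, 18 and 48 counts in knockdown and 126, 55 and 60 in control libraries. Its log2 fold change was −1.32 ± 0.50 (SE), and −0.81 without control replicate 1.

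Inhibitors and regulators of the SMADs had a median log2 fold change of −0.17 over 16 tested members, with 12 negative and 4 positive. SKIL encodes SnoN, a corepressor of the SMADs and a TGF-beta target. It had 5.48, 20.4 and 13.3 CPM in knockdown and 26.8, 28.1 and 32.7 CPM in control libraries, all knockdown values below all controls, with a log2 fold change of −1.16 ± 0.40 (SE, adjusted p = 0.243 from edgeR). With the GC trends removed SKIL was at −0.76 ± 0.29. FKBP1A, whose product binds the unstimulated type I receptor, had 959, 1008 and 1205 CPM in knockdown and 762, 747 and 724 CPM in control libraries (log2 fold change 0.51 ± 0.16, SE; adjusted p = 0.220 from edgeR). The inhibitory SMAD gene SMAD7, named here after its values were seen because TGF-beta is known to induce it, had 13.1, 20.1 and 23.7 CPM in knockdown and 15.9, 21.0 and 20.0 CPM in control libraries, so its groups overlapped.

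TGF-beta target genes were split, with 10 positive and 12 negative log2 fold changes among 22 tested and a median of −0.10. With 1 library left out the median was −0.24 to 0.26. At an unadjusted p under 0.05, 1 was higher and 4 lower, beside 8.17% and 7.36% of all genes. ADAM19, a membrane metalloprotease, had 31.6, 38.4 and 33.2 CPM in knockdown and 13.4, 15.8 and 18.2 CPM in control libraries. The groups were far apart for their spread, with a log2 fold change of 1.12 ± 0.19 (SE) and adjusted p-values of 0.145 from edgeR and 0.000103 from DESeq2. KLF10, an early TGF-beta-induced transcription factor, had 34.2, 44.3 and 44.1 CPM in knockdown and 51.1, 65.1 and 58.4 CPM in control libraries (log2 fold change −0.51 ± 0.18, SE; adjusted p = 0.255 from edgeR). NEDD9, a focal adhesion scaffold, had 1.80, 2.66 and 2.41 CPM in knockdown and 3.81, 4.67 and 3.78 CPM in control libraries, with a log2 fold change of −0.83 ± 0.27 (SE).

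The other 2 target genes with an unadjusted p under 0.05, both on the lower side, were near the floor in knockdown and uneven within both groups. CDKN2B, the cell cycle inhibitor p15, had 1, 0 and 59 counts in knockdown and 303, 106 and 129 in control libraries. CXCR4, a chemokine receptor tied to metastasis, had 6, 2 and 51 counts in knockdown and 267, 82 and 110 in control libraries. For both, knockdown replicate 3 was nearest to the controls and control replicate 1 was the highest, as also in INHBE, DCN and CD109. Whether the reads of any of these genes come from the line itself was not tested. The log2 fold changes were −3.10 ± 1.17 for CDKN2B and −2.89 ± 0.93 for CXCR4 (SE), with edgeR adjusted p-values of 0.271 and 0.225. With knockdown replicate 3 left out both passed, at edgeR adjusted p-values of 0.0262 for CDKN2B and 0.0445 for CXCR4. In that fit 0.819% of all genes passed, and 8 counts or fewer were left per gene in knockdown. With control replicate 1 left out they were at −2.46 and −2.18 and did not pass.

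**Figure D5:**
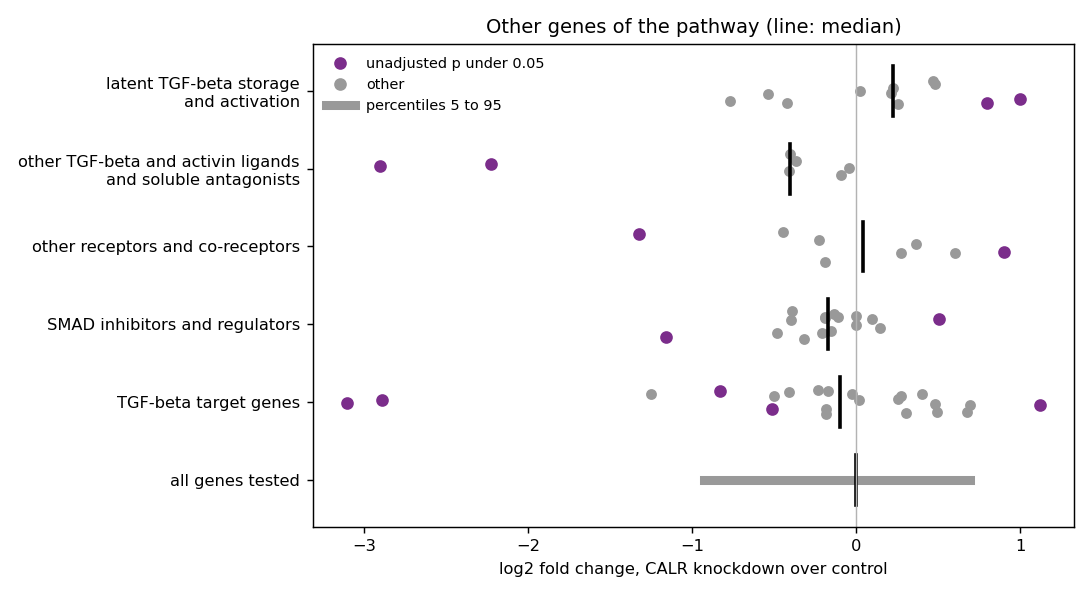
Log2 fold change of CALR knockdown over control for the tested genes of the 5 pathway lists, each point a gene, with black lines at the medians and purple points at an unadjusted p under 0.05 in edgeR. The grey bar gives percentiles 5 to 95 of all genes tested, −0.93 to 0.70. The 7 other ligands and antagonists lie left of 0, and the target genes spread to both sides.

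Across the 6 libraries, 4 of the 5 genes whose log2 CPM followed that of TGFB1 most closely, among 12417 genes with a mean log2 CPM of at least 1, were GPS1 (Pearson r = 0.9986), FARS2 (0.9955), FOSL1 (0.9953) and HIGD2A (0.995). These values share the libraries and their scaling, and 1040 genes had an r over 0.9 with TGFB1.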

How the data were processed

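MDA-MB-231 RNA sequencing, 3 CALR knockdown and 3 control libraries, was analysed as labelled. The authors deposited whole-number read counts for 31582 genes and FPKM values, rounded to 2 decimals, for 31356. Their processing notes name FastQC 0.9.5, TopHat2 and build GRCh38 (per the submitters' processing notes). How reads were counted, with which strand setting and annotation, is not given in the sources used here. Identifiers were matched to GENCODE 29 (GRCh38) without version numbers for coordinates, GC content (longest transcript, 99.4% of tested genes) and overlaps.

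From the counts, edgeR 4.0.16 under R 4.3.3 (filterByExpr, TMM, quasi-likelihood F-test, no covariate) tested 16394 genes, with Benjamini-Hochberg adjustment and a threshold of 0.05. SEs were computed as |log2 fold change| over √F. Per-library differences use log2 CPM with a prior count of 2. FPKM values served for levels between genes and for ratios.

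The script was tested on simulated data. Replicates differed by a chi-square per gene of 105 to 199 (knockdown pairs) and 11.8 to 48.1 (control pairs), so each library counted once. Alternatives were other scalings, filters and tests (DESeq2 1.42.0, limma 3.58.1), a GC offset, the replicate block and leaving out each library; the GC-corrected ratios were added after the data had been seen. Named genes were the 9 genes, CALR, up to 5 genes per list with an unadjusted p under 0.05, and the 5 genes most correlated with the leading one. The 9 genes and all lists were chosen with earlier results of these data known, and no list was tested as a set. The single values of some genes are not reported here.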

Additional observations from a re-analysis of the deposited data

How the results depend on the processing

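TGFB1, TGFB2, TGFBR1, TGFBR2, SMAD4 and TGFBI kept their direction in all 18 alternatives and INHBA in the 15 that tested it. SMAD3 turned to −0.038 with library size alone, where the median of all genes moved to −0.133, to −0.037 on log2(FPKM + 1) with or without a filter, and to −0.040 on log2(FPKM + 0.1). SMAD2 turned to 0.12 with the GC offset and 0.11 with the GC offset and replicate block. The count of the 9 genes at an unadjusted p under 0.05 was 2, where 15.5% of all genes had one. It was 4 with library size alone (15.5% of all genes) and 5 with no low-count filter (12.3%). With the replicate block it was 4 (13.5%), and with the GC offset and replicate block 4 (18.6%). With 1 library left out it was 1 to 4, where the share of all genes was 7.23% to 35.6%. The count past the adjusted threshold was 0 to 2 with 1 library left out, and 0 in the other alternatives. Over all genes the adjusted count was 0, against 530 with DESeq2, 988 with no low-count filter, 5 in limma on all FPKM values, 7 with the GC offset, 14 with the GC offset and replicate block, and 0 to 2604 with 1 library left out. Of 64 pathway list genes 13 had an unadjusted p under 0.05 (20.3%, beside 15.5% of all genes). With no low-count filter 22 of 71 did (31%, beside 12.3%). The count was 19 of 64 (29.7%) both with library size alone and with the GC offset and replicate block, beside 15.5% and 18.6%. With 1 library left out it was lowest without control replicate 1, at 10 of 64 (15.6%, beside 11.1%). It was highest without knockdown replicate 2, at 22 of 64 (34.4%, beside 35.6%). CALR was at −2.22 with an adjusted p of 0.209, at −2.20 with an adjusted p of 1.45e-19 with no low-count filter, and at −3.55 to −1.78 with 1 library left out. The TGFBR1 to TGFBR2 difference was −0.001 with 0.1 added to FPKM and −0.38 to 0.27 with 1 library left out. The SMAD2 to SMAD3 difference was −0.22, and 0.051 after a GC correction added once the data had been seen. The cause of these changes was not tested. Deviations from the group means correlated at 0.20, −0.12 and −0.22 between the groups for replicates 1, 2 and 3. Between libraries of unlike number the values were −0.20 to 0.36, the highest for knockdown replicate 2 with control replicate 3. With 3 libraries per group these values cannot decide whether libraries were paired. INHBA, at 36 to 230 counts, is limited by depth more than the other 8 genes.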
